A study of Mus musculus with 15 samples.

Results

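The oligoadenylate synthetase (OAS) family was followed through skin libraries of mice with and without OTULIN in keratinocytes. Its members were taken by gene symbol: *Oas1a*, *Oas1g*, *Oas2*, *Oas3*, *Oasl1* and *Oasl2*, 6 of the 55487 genes in the count table, and all 6 had a row. The libraries were made by QuantSeq, a method that sequences the 3′ end of each polyadenylated mRNA, from skin of C57BL/6 mice aged 3 weeks. The methods of the study give the same RNA integrity limit as a reason for exclusion and as a property of the samples included, so RNA quality is unclear here, and integrity per library was not analysed. Per the labels, 5 libraries were WT (replicates 1, 4, 7, 10 and 13), 5 were OTULIN-KO skin of non-lesional appearance (3, 6, 9, 12 and 15) and 5 were OTULIN-KO skin of lesional appearance (2, 5, 8, 11 and 14), with no treatment given. The knockout animals, OTULIN E-KO, are *Otulin* fl/fl *K14-Cre* mice, in which the keratin 14 promoter drives Cre in keratinocytes, and the WT animals are littermates that carry the floxed alleles without Cre. The RNA came from whole skin, so cells that Cre does not target were counted too, and the sources used here do not state whether any mouse gave both a lesional and a non-lesional sample.

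OAS enzymes are sensors of double-stranded RNA. Once bound to it, OAS1, OAS2 and OAS3 join ATP into short 2′-5′-linked oligoadenylates, which act as second messengers of antiviral defence. The OAS-like proteins share the fold and carry ubiquitin-like domains. The genes are classical targets of type I interferon, whose receptor acts through a factor complex that holds STAT2 and IRF9 on interferon-stimulated response elements (ISREs) in promoters.

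All 6 genes lie on chromosome 5 of GRCm38, in a pair of clusters. *Oasl2* (ENSMUSG00000029561, chr5:114896936-114912234) and *Oasl1* (ENSMUSG00000041827, chr5:114923240-114937915) are neighbours on the plus strand. *Oas2* (ENSMUSG00000032690, chr5:120730333-120749853), *Oas3* (ENSMUSG00000032661, chr5:120753098-120777661), *Oas1g* (ENSMUSG00000066861, chr5:120876142-120887613) and *Oas1a* (ENSMUSG00000052776, chr5:120896256-120907521) lie on the minus strand of the second cluster. Each is annotated as protein coding.

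RefSeq promoter sequences, from 250 bases before to 50 bases after the start in GRCm38.p6, were found for 5 of the 6 members. They are shown for a pair of close paralogs with ISRE-like matches (*Oas1a* and *Oas1g*), for the other member with an ISRE-like match (*Oas3*) and for the member with most counts (*Oasl2*), read 5′ to 3′ along the gene's own strand. Capitals mark matches to GAAANNGAAA or its reverse complement TTTCNNTTTC, the core repeat of an ISRE, searched on both strands.
Oas1a, chr5:120907476-120907775, minus strand: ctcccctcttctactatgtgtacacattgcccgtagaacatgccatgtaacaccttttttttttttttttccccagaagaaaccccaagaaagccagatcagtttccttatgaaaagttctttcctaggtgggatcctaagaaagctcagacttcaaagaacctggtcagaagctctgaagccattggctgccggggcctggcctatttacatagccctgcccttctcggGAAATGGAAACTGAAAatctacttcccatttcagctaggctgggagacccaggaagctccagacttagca
Oas1g, chr5:120887564-120887863, minus strand: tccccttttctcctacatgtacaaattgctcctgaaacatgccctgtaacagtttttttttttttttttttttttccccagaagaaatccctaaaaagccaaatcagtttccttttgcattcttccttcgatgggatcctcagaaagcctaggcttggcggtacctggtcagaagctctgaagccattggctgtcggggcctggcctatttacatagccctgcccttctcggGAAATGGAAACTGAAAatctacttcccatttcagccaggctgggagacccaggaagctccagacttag
Oas3, chr5:120777610-120777909, minus strand: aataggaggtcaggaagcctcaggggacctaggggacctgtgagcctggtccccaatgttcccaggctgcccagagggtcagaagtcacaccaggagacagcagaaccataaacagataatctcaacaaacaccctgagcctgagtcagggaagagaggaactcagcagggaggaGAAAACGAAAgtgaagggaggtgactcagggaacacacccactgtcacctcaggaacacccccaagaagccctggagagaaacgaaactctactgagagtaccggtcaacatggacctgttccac
Oasl2, chr5:114896684-114896983, plus strand: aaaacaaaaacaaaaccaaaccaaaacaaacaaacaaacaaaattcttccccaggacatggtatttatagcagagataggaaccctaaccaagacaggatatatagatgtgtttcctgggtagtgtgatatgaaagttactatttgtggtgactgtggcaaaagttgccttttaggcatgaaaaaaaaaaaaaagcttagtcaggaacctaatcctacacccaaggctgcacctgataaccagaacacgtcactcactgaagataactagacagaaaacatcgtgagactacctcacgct

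The ISRE-like letters were present in 3 of the 5 member promoters and in 3.44% of all 32851 promoters. With the start at position 0, *Oas1a* held 2 overlapping matches from -20 to -11 and from -14 to -5, and *Oas1g* held the same letters from -18 to -9 and from -12 to -3. *Oas3* held 1 match, from -75 to -66. The interferon-γ type element TTCNNNGAA, which reads the same on both strands, was in the *Oas1a* promoter from -98 to -90 and in no other member promoter, against 8.3% of all promoters. It did not overlap the ISRE-like matches. *Oasl2* and *Oasl1* held neither set of letters in this window.

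Library totals ran from 1962604 to 2567138 counts, and members took between 15 and 831 of them per library. *Otulin*, the targeted gene, did not separate the genotypes: it ran from 12.4 to 28.5 CPM (the count scaled to library size) in WT, from 21.5 to 31.1 CPM in non-lesional and from 19.2 to 27.5 CPM in lesional libraries (two-sided exact permutation tests against WT, p = 0.484 and 0.659). Whether the counted 3′ end lies outside the deleted part was not examined, so groups are named by their labels. Lesional libraries 2 and 11 stood apart from the other 3: their summed markers of hyperplastic epidermis (keratins and small proline-rich proteins of thickened epidermis) were 13702 and 33818 CPM, against 740 to 979 CPM in lesional libraries 5, 8 and 14 and 665 to 2228 CPM in WT. The lesional results most exposed to these libraries are therefore also given without both, an alternative that leaves 3 lesional libraries.

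Summed over the 6 members, OAS transcripts made up 11.1 ± 3.92 CPM in WT (SD, n = 5), 33.8 ± 19.2 CPM in non-lesional (SD, n = 5) and 125 ± 176 CPM in lesional skin (SD, n = 5). In the WT libraries, in the order given above, the sums were 12.2, 6.62, 9.05, 10.7 and 17.1 CPM. The non-lesional sums were 45.5, 11.2, 17.9, 57.5 and 37.1 CPM, and 4 of these 5 lay above every WT library. The lesional sums were 156, 11.9, 9.29, 421 and 28.9 CPM. Replicates 2 and 11 held the highest sums of all, whereas replicates 5 and 8 lay among WT. In bulk tissue, more cells that express a gene and more RNA per cell cannot be told apart. The p-values below measure the spread between these samples.

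*Oasl2*, the OAS-like gene whose product has ubiquitin-like domains, carried most of the family's counts in each of the 15 libraries. Its level was 8.64, 5.30, 7.24, 7.67 and 12.9 CPM in WT, from 12 to 34 counts. In non-lesional skin it was 37.4, 9.88, 15.8, 48.6 and 29.1 CPM, from 23 to 120 counts. In lesional skin it was 128, 9.85, 7.27, 335 and 25.5 CPM, from 18 to 661 counts. Non-lesional replicate 6 was the single non-lesional library within the WT range, and in lesional skin replicates 5 and 8 were within it.

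Of the 6 members, *Oasl2* was the 1 that passed edgeR's filter on low counts, in each comparison. Between non-lesional and WT libraries, it differed by 1.74 on the log2 scale (SE 0.40), with an unadjusted p of 0.000867 and a Benjamini-Hochberg adjusted p of 0.9998 over 13021 genes in edgeR's quasi-likelihood test. It did not pass the threshold of adjusted p under 0.05, and neither did any other gene in this comparison (0 of 13021, 0%). DESeq2 called 1 gene here, 14 between lesional and WT and 0 between lesional and non-lesional libraries, and limma's voomWithQualityWeights called 0 in each. The unadjusted p was under 0.05 with a higher non-lesional level for 241 genes (1.85%), and *Oasl2* was 1 of these. A single value tested alone, the mean log2 CPM of *Oasl2*, was higher by 1.501 in non-lesional skin (two-sided exact permutation test, p = 0.0159, unadjusted, 1 of 18 such tests on members, smallest possible p 0.00794). No member had every non-lesional library above every WT library, as did 0.392% of the genes tested. Without non-lesional replicate 6, *Oasl2* differed by 1.95 and its adjusted p in edgeR was 0.0266. With this library kept but without a filter on low counts, the edgeR adjusted p was 4.31e-08. The call therefore depended on this library and on the filter. With all 15 libraries in 1 edgeR fit the unadjusted p was 0.109.

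Between lesional and WT libraries, *Oasl2* differed by 3.58 (SE 1.09), with an unadjusted p of 0.00945 and an adjusted p of 0.926 over 12918 genes in edgeR's test, where again 0% of genes passed. The unadjusted p was under 0.05 with a higher lesional level for 3.24% of genes, *Oasl2* among them. The difference in mean log2 CPM was 2.16 (exact permutation test, p = 0.0635), and no member had all lesional libraries above all WT libraries, against 0.441% of genes. Leaving out lesional replicates 2 and 11 brought the difference to 0.733 (SE 0.391, edgeR unadjusted p = 0.0797), with 3 lesional libraries remaining.

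Between lesional and non-lesional libraries, *Oasl2* differed by 1.84 (SE 1.04), with an unadjusted p of 0.113 and an adjusted p of 0.973 over 12864 genes in edgeR's test. No member had an unadjusted p under 0.05, as did 2.89% of genes with a higher lesional level, no gene passed the adjusted threshold (0%), and no member was separated, as were 0.295% of genes. The difference became -1.003 (SE 0.608) without lesional replicates 2 and 11, so its direction rested on them. The 2 comparisons with WT share the WT libraries.

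**Figure D1:**
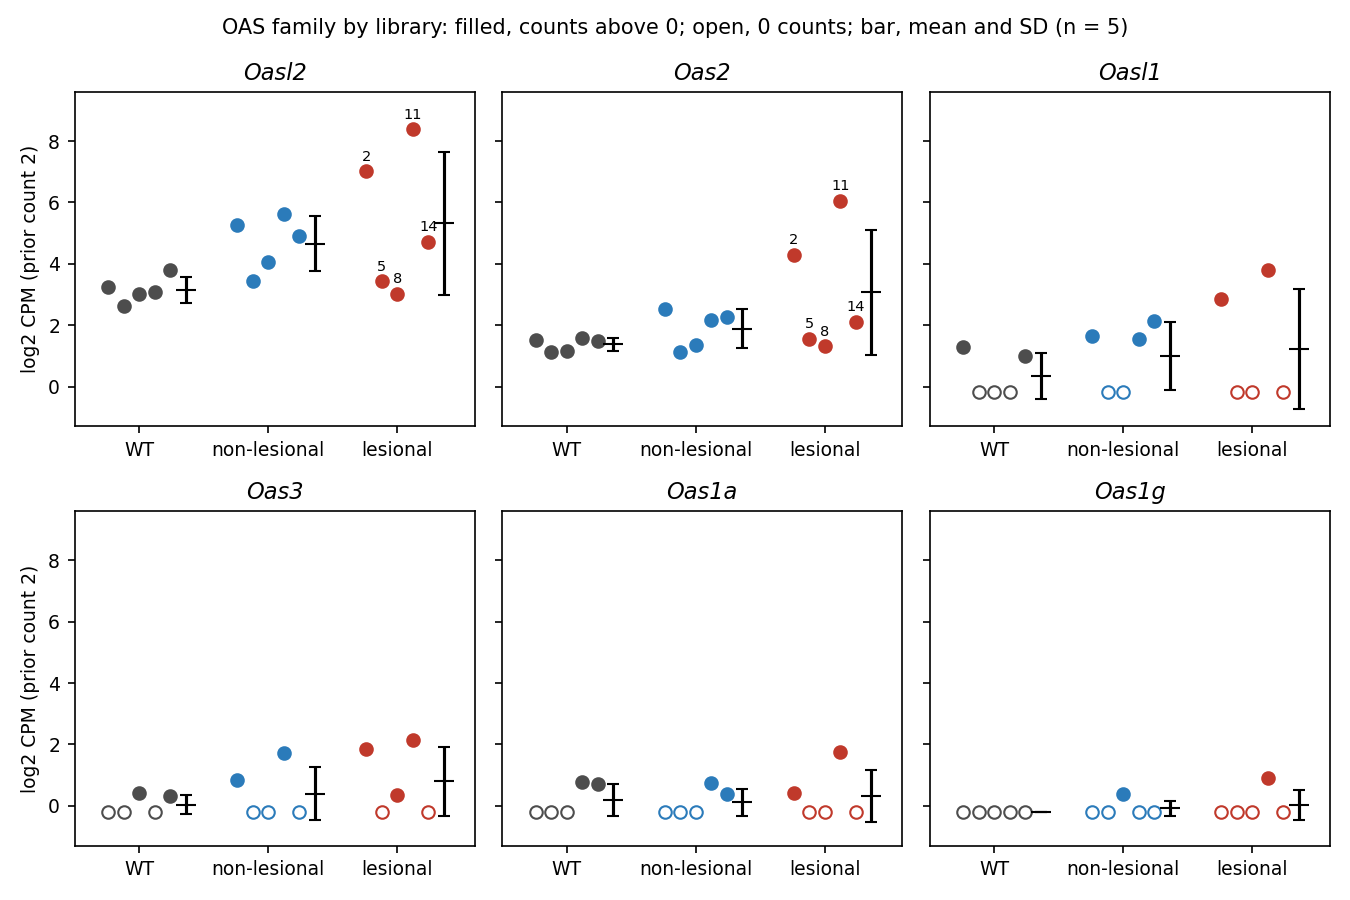
Levels of each member by library, as log2 CPM with a prior count of 2, with the groups on the horizontal axis. Filled points are libraries with counts, open points libraries with 0 counts, black bars the mean and SD of 5 libraries, and numbers the lesional replicates. *Oasl2* and *Oas2* have counts in all 15 libraries and are highest in lesional replicates 11 and 2, whereas *Oas1a* and *Oas1g* are at 0 in most.

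*Oas2*, which encodes a synthetase with a pair of OAS units, was the second most counted member. In WT it was 1.96, 1.32, 1.36, 2.13 and 1.90 CPM, from 3 to 5 counts per library. Non-lesional libraries held 4.95, 1.29, 1.67, 3.65 and 3.97 CPM. Lesional libraries held 18.8, 2.07, 1.62, 65.8 and 3.43 CPM. In each knockout group 3 of 5 libraries lay above every WT library, and lesional replicate 11 alone had 130 of the 186 lesional counts. *Oas2* was removed by the filter on low counts, so its fold change comes from the fit without a filter. There it was 0.81 (SE 0.54) for non-lesional against WT, 3.35 (SE 1.18) for lesional against WT and 2.54 (SE 1.13) for lesional against non-lesional skin, with edgeR adjusted p from 0.721 to 0.747. The exact permutation tests gave p = 0.143, 0.0635 and 0.310 in the same order. Without lesional replicates 2 and 11, the latter fold changes were 0.412 (SE 0.697) and -0.387 (SE 0.589).

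*Oasl1*, known as a negative regulator of IRF7 translation in mice, had counts in 7 of 15 libraries. WT replicates 1 and 13 held 4 and 3 counts, non-lesional replicates 3, 12 and 15 held 5, 5 and 8 counts, and lesional replicates 2 and 11 held 14 and 26 counts. The other libraries held 0, and each group spanned the value 0. The fit without a filter gave 1.36 (SE 0.81) for non-lesional against WT, 2.65 (SE 1.55) for lesional against WT and 1.29 (SE 1.40) for lesional against non-lesional skin, with edgeR adjusted p from 0.721 to 0.830. Without lesional replicates 2 and 11 no lesional library held a count. Exons of *Oasl1* overlap those of *Gm13822* on the opposite strand. The counting parameters name no strand option, which leaves featureCounts at its unstranded default, and a read over several genes was counted for each, so reads of these 2 genes cannot be told apart.

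*Oas3*, the largest synthetase, with 3 OAS units, had 2 counts in WT, 8 in non-lesional and 14 in lesional libraries. Of the lesional counts, 6 were in replicate 2 and 7 in replicate 11, and of the non-lesional counts 6 were in replicate 12. No fold change is given against so few WT counts, and exact permutation tests gave p = 0.563, 0.286 and 0.603 for the 3 comparisons in the order used above. Of the 35-base windows in the last 500 bases of its longest transcript, 21.7% also occur in transcripts of other genes.

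*Oas1a*, a single-unit synthetase, had 4 counts in WT, 3 in non-lesional and 6 in lesional libraries, of which lesional replicate 11 held 5. *Oas1g*, its neighbour and close paralog, had 0, 1 and 2 counts, and a count of 0 in 5 libraries allows up to 3. These depths could not show a difference in either gene. Between these paralogs, 67.2% of the 35-base windows at the 3′ end of *Oas1a* and 42.1% of those of *Oas1g* are shared. The authors kept matches that mapped to 1 place with high quality, so reads from shared windows may have been dropped, which would leave the counts of both genes too low. *Oasl2*, *Oas2* and *Oasl1* shared 0 of 466 such windows with any other gene.

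**Figure D2:**
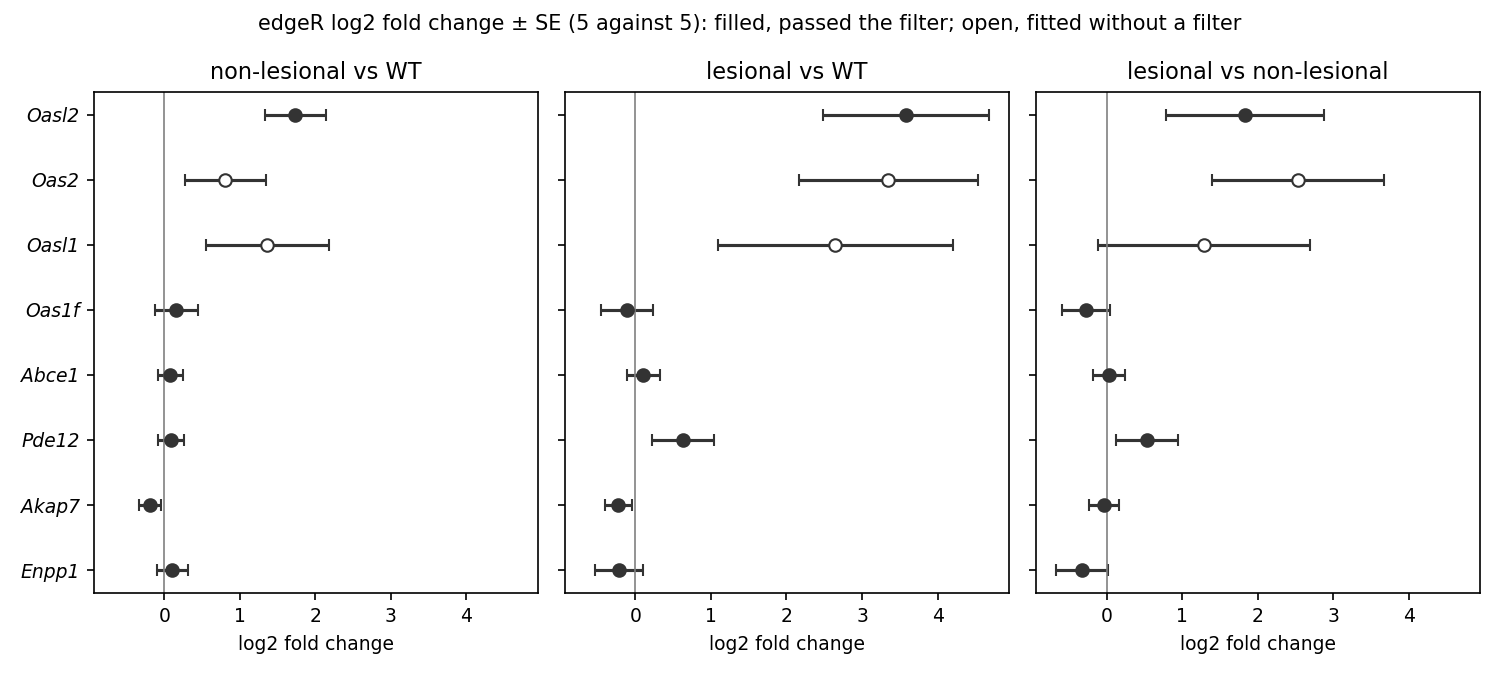
Log2 fold changes with their SE from edgeR for members with enough counts, *Oas1f* and 4 genes linked to oligoadenylate turnover, in the 3 comparisons of 5 against 5 libraries. Filled points passed the filter on low counts and open points were fitted without it. *Oasl2* stands at 1.74 and 3.58 against WT, while *Abce1* stands at 0.08 and 0.11.

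The make-up of the family was compared as well. 3′ counts need no correction for transcript length, so members were also compared by their share in the summed counts, a total that includes the uncertain counts of *Oas1a*, *Oas1g* and *Oasl1*. *Oasl2* made up 75.7% ± 4.27 of members' counts in WT (SD, n = 5), 84.4% ± 4.22 in non-lesional (SD, n = 5) and 82.1% ± 3.81 in lesional libraries (SD, n = 5). *Oas2* made up 16.4% ± 3.74, 9.76% ± 2.08 and 14.9% ± 2.76 in the same order. Shares of a library add up to a fixed total, so a lower share of *Oas2* goes with higher shares of other members. The tests on shares are therefore not independent of each other. The share of *Oas2* differed by -6.69 percentage points in non-lesional against WT skin (two-sided exact permutation test, p = 0.0159) and was higher in lesional than in non-lesional skin by 5.11 points (exact p = 0.00794, the smallest possible), with no overlap between the 5 lesional and 5 non-lesional libraries. That of *Oasl2* was higher by 8.71 points in non-lesional (exact p = 0.0238) and by 6.37 points in lesional skin (exact p = 0.0476) than in WT. The latter p did not hold when single replicates were left out (exact p from 0.0397 to 0.0873, above 0.05 without WT replicates 1, 10 or 13 or lesional replicates 2, 5 or 14), and without lesional replicates 2 and 11 it was 0.0893 at 7.30 points (exact test). The *Oas2* share differed by 5.79 points between lesional and non-lesional skin without both (exact p = 0.0179). These p-values are unadjusted, from 15 tests on shares, and the shares rest on 15 to 45 members' counts per library in WT, 26 to 142 in non-lesional and 23 to 831 in lesional skin. *Oas2* held 4 of 23 counts in each of lesional replicates 5 and 8 and 3 of 26 in non-lesional replicate 6, whose share of 11.5%, the highest of its group, lay next to the lowest lesional share of 11.9%. The exact 95% binomial interval of the pooled *Oas2* share was 9.82% to 22.6% in WT, 6.45% to 12.4% in non-lesional and 12.7% to 16.6% in lesional libraries, which covers counting error only.

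**Figure D3:**
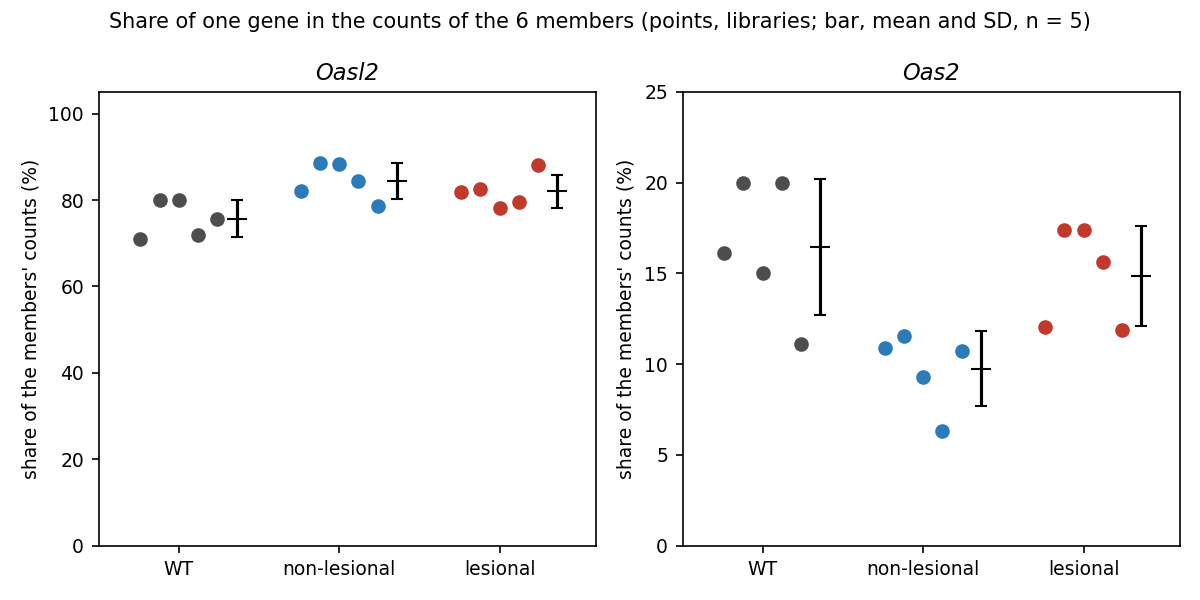
Share of *Oasl2* and of *Oas2* in the counts of the 6 members, in percent, by library, with mean and SD of 5 libraries. The non-lesional shares of *Oas2*, from 6.34% to 11.5%, lie below the lesional ones, from 11.9% to 17.4%.

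Likeness between members across libraries is given as a description. Over 15 libraries, the Pearson correlation of log2 CPM was 0.948 between *Oas2* and *Oasl2*, 0.881 between *Oasl1* and *Oasl2* and 0.839 between *Oas3* and *Oasl2*. Without lesional replicates 2 and 11 (n = 13) these were 0.887, 0.672 and 0.566. Pairs with *Oas1a* ran from 0.652 to 0.726, and from 0.285 to 0.404 without both libraries. Among 13460 genes ranked, those most like the summed members were *Parp12* (r = 0.966), *H2-D1* (0.965), *Igtp* (0.956), *Ifitm3* (0.954) and *Ddx58* (0.954), and the r of these 5 without both libraries ran from 0.850 to 0.910. All values share the libraries' depth and tissue make-up.

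The second cluster also holds other *Oas* genes. *Oas1d* and *Oas1h* were at 0 in all 15 libraries, and *Oas1e* had 10, 5 and 13 counts in WT, non-lesional and lesional libraries. *Oas1f*, the single one of these 6 genes that passed the filter, differed by 0.16 (SE 0.28), -0.11 (SE 0.34) and -0.27 (SE 0.32) in the 3 comparisons, and by 0.17 (SE 0.35) between lesional and WT skin without lesional replicates 2 and 11. *Oas1c*, removed by the filter, was 1.18 to 3.53 CPM in WT and 2.58 to 6.25 CPM in non-lesional libraries (exact permutation test, p = 0.0159, unadjusted), with 4 of 5 non-lesional libraries above WT. Exons of *Oas1c* overlap those of *Gm43069* on the opposite strand, so reads of these genes cannot be told apart under unstranded counting. Unlike the members, *Oas1c* was at 1.52 CPM, its lowest lesional level, in lesional replicate 11. *Oas1b*, annotated as a polymorphic pseudogene, had 8, 25 and 26 counts in WT, non-lesional and lesional libraries (exact permutation p = 0.0556 for non-lesional against WT), of which lesional replicate 11 held 16.

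Downstream of the synthetases, 4 genes linked to oligoadenylate turnover and signalling all passed the filter. In edgeR's test 0 of 4 had an unadjusted p under 0.05 in any of the 3 comparisons. Among all genes, 1.85%, 3.24% and 2.89% had such a p with a higher level in the group named first. At such shares, 0 of 4 is no finding about this list. *Abce1*, which also encodes a ribosome recycling factor, differed by 0.08 (SE 0.17) in non-lesional and by 0.11 (SE 0.22) in lesional against WT skin. Of the enzymes that degrade 2′-5′ oligoadenylates, *Pde12* differed by 0.09 (SE 0.17) and 0.63 (SE 0.41), *Akap7* by -0.19 (SE 0.15) and -0.23 (SE 0.18), and *Enpp1* by 0.11 (SE 0.20) and -0.22 (SE 0.32). *Pde12* differed from WT by -0.24 (SE 0.25) without lesional replicates 2 and 11. Again 0 of 4 had an unadjusted p under 0.05, beside 1.42% of all genes with a higher level.

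Of 10 other genes of nucleic acid sensing, among them the adaptor *Mavs* and the RNA-editing enzyme *Adar*, 8 passed the filter in each comparison with WT. In non-lesional skin 3 of these had an unadjusted p under 0.05 with a higher level, and in lesional skin 6, *Adar* among them in both, beside 1.85% and 3.24% of all genes. They did not pass the adjusted threshold. *Eif2ak2*, the kinase PKR, differed by 0.82 (SE 0.24) and 1.45 (SE 0.44), *Ifih1* (MDA5) by 0.77 (SE 0.23) and 1.52 (SE 0.48), *Ddx58* (RIG-I) by 0.40 (SE 0.21) and 1.08 (SE 0.36) and *Tlr3* by 0.29 (SE 0.35) and 0.99 (SE 0.35), in non-lesional and lesional against WT skin. The median over the passing genes of this list was 0.375 and 0.967, beside -0.0027 and -0.0034 over all genes tested. Without lesional replicates 2 and 11, 0 of the 8 had an unadjusted p under 0.05 between lesional and WT skin (1.42% of all genes did with a higher level), and their median was 0.280. The differences of *Eif2ak2*, *Ifih1*, *Ddx58* and *Tlr3* were then 0.40 (SE 0.25), 0.34 (SE 0.22), 0.29 (SE 0.25) and 0.67 (SE 0.36).

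Of 11 genes of interferon signalling, 10 passed the filter in the comparison of non-lesional with WT skin and 11 in that of lesional with WT skin, with 4 at an unadjusted p under 0.05 and a higher level in each, beside 1.85% and 3.24% of all genes, and 0 at a lower level. In non-lesional skin 4 of the 10 had a fold change above 0 and 6 below it, with a median of -0.055, and in lesional skin 8 of 11 were above 0, with a median of 0.396. The 4 named here are those with the smallest p. *Irf9*, the DNA-binding partner of STAT2, differed by 0.78 (SE 0.18) and 1.21 (SE 0.33), *Stat2* by 0.66 (SE 0.24) and 1.32 (SE 0.40), *Irf7* by 1.29 (SE 0.36) and 2.37 (SE 0.69), and *Usp18*, a feedback inhibitor of the receptor, by 1.503 (SE 0.38) and 2.20 (SE 0.61). For lesional against non-lesional skin, 0 of the 11 had an unadjusted p under 0.05, beside 2.89% of all genes with a higher lesional level. Without lesional replicates 2 and 11, 2 of the 11 had an unadjusted p under 0.05 with a higher level against WT, beside 1.42% of all genes. These were *Irf9* at 0.52 (SE 0.20) and *Stat2* at 0.57 (SE 0.26), while *Irf7* was at 0.76 (SE 0.41) and *Usp18* at 0.87 (SE 0.43). Among 7 interferon genes, *Ifnb1*, *Ifna4*, *Ifne*, *Ifnl2* and *Ifnl3* were at 0 in all 15 libraries, *Ifng* had 1 count in all, and *Ifnk*, the keratinocyte interferon, had 5, 8 and 10 counts in WT, non-lesional and lesional libraries. Of the 10 lesional *Ifnk* counts, 9 were in replicate 2. The transcripts of these 7 interferon genes were at or near the detection limit at this depth.

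Markers of other cell types moved with the family in the same 2 lesional libraries. The summed neutrophil markers were 3024 and 5184 CPM in lesional replicates 2 and 11, 221 CPM in non-lesional replicate 3 and at most 21.2 CPM elsewhere, while *Ly6g*, *Mpo* and *Csf3r*, 3 of the 7 markers, were at 0 in every library. *S100a8* and *S100a9*, which keratinocytes of thickened epidermis also express, made up most of these sums, with 1294 and 1724 CPM in replicate 2 and 2432 and 2735 CPM in replicate 11. *Cxcr2*, a receptor of neutrophils, had 11 counts in each of lesional replicates 2 and 11, 2 in lesional replicate 5, 1 in non-lesional replicate 12 and 0 in the other libraries, and reached at most 5.57 CPM. *Retnlg* was 11.6 CPM in lesional replicate 11 and at most 1.67 CPM in the other libraries. Macrophage markers were 338 to 667 CPM in WT, 435 to 560 CPM in non-lesional and 429 to 725 CPM in lesional libraries. Of these markers *Aif1* was 5.50 to 9.71 CPM in WT, 4.30 to 14.4 CPM in non-lesional and 10.4 to 25.3 CPM in lesional libraries, and it exceeded the highest WT library in 5 lesional and 4 non-lesional libraries. The groups of lesional and WT libraries did not overlap in this direction for 0.441% of all genes. The log2 fold change of *Aif1* between lesional and WT skin was 1.19 (SE 0.29, edgeR unadjusted p = 0.00113, adjusted p = 0.926), and 0.83 (SE 0.30) without replicates 2 and 11. *C1qa* differed by 0.57 (SE 0.25), and by 0.24 (SE 0.24) without both. Of the 8 macrophage markers that passed the filter, *Aif1* and *C1qa* were those with an edgeR unadjusted p under 0.05. This stood beside 3.24% of all genes with a higher lesional level. Of the 8, 6 had a fold change above 0 and 2 below it, with a median of 0.218. Without both libraries 4 of the 8 were above 0, with a median of 0.017, and 1 had such a p, beside 1.42% of all genes. Skeletal muscle markers were 3422 CPM in lesional replicate 11, the lowest of all libraries. So were fibroblast markers, at 16563 CPM, and adipocyte markers, at 1071 CPM. Langerhans cell markers were 387 and 406 CPM in lesional replicates 2 and 11 and at most 313 CPM in the other libraries. *Cd207* (langerin), the specific marker of this list, had a log2 fold change of -0.04 (SE 0.37) between lesional and WT skin, and *Epcam*, which other epithelial cells also express, had 0.33 (SE 0.39). Keratinocyte markers, which mark the labelled tissue, were present throughout, at 7996 to 11384 CPM in WT, 8722 to 11674 CPM in non-lesional and 7767 to 15631 CPM in lesional libraries. In the non-lesional group, replicates 12 and 15 had summed members of 57.5 and 37.1 CPM with hyperplastic epidermis markers of 884 and 803 CPM, within the WT range. Their neutrophil markers were 3.65 and 21.2 CPM, where WT ran from 1.70 to 6.68 CPM. Non-lesional replicate 3, with summed members of 45.5 CPM, had 1703 CPM of hyperplastic epidermis markers, also within the WT range, and 221 CPM of neutrophil markers. Erythrocyte markers were 3827 CPM in non-lesional replicate 12, the highest of all libraries, and 1908 CPM in replicate 15, where WT ran from 827 to 1516 CPM. They were 2465 CPM in lesional replicate 14, with summed members of 28.9 CPM, and 791 and 1254 CPM in lesional replicates 2 and 11. The part of these markers in the levels of the OAS family was not tested.

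**Figure D4:**
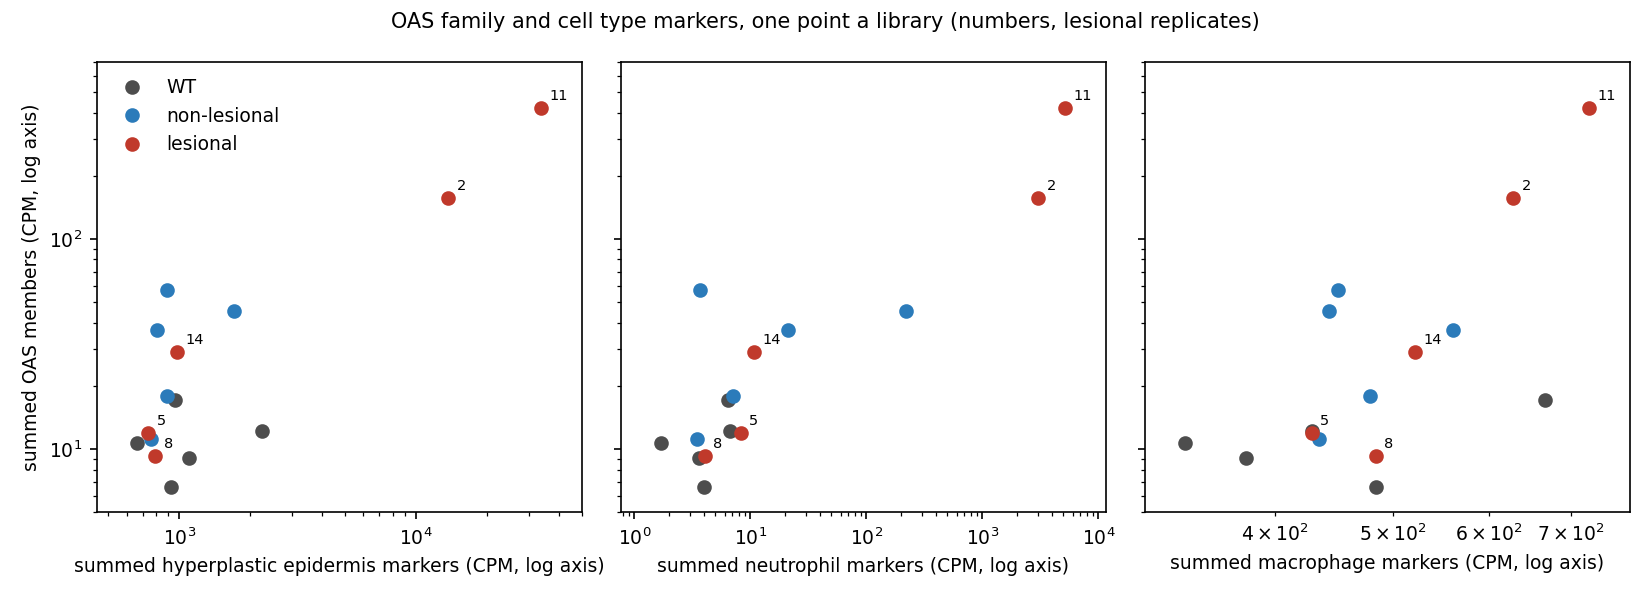
Summed CPM of the 6 members against summed CPM of 3 marker lists, 1 point a library, both axes logarithmic, with numbers on lesional replicates. Lesional replicates 2 and 11 are highest for the members and for the hyperplastic epidermis and neutrophil markers, and 4 non-lesional libraries lie above WT at marker sums of hyperplastic epidermis between 803 and 1703 CPM.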

How the data were processed

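Gene expression in mouse skin was measured in 15 libraries, 5 per group. The authors clipped adaptors with cutadapt 2.10, discarding reads under 35 bases, mapped reads to GRCm38 and spike-in sequences with Subread, kept unique matches of high mapping quality with samtools, and counted them per gene with featureCounts 2.0.1, with no strand option and with a match over several genes counted for each. The deposited counts are not normalized. The deposited CPM are each count over its library total and were used only for a check, and the 92 spike-in rows held 0 counts. The release of the annotation used for counting is not given in the sources used here. PCR copies were not removed.

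Each pair of groups was fitted alone with edgeR 4.0.16 in R 4.3.3 (TMM, filterByExpr, robust quasi-likelihood test, Benjamini-Hochberg adjustment over all genes that passed). CPM printed here are TMM-normalized, and log2 CPM carries a prior count of 2. Single values were compared by two-sided exact permutation tests over 252 regroupings. Alternatives used limma 3.58.1 and DESeq2 1.42.0. Exon overlaps and shared windows came from GENCODE vM21.

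The members and lists were chosen with earlier results of these data known. Named were all members, the other *Oas* genes, 4 genes of oligoadenylate turnover, up to 4 genes of each further list, those with the smallest p in either comparison with WT, and the 5 genes most correlated with the summed members. Interferon and marker genes, *Mavs* and *Adar* were named after their values were seen. Some genes are not reported here and were left out of the lists. Leaving out lesional replicates 2 and 11 for listed genes and shares was chosen after seeing the data.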

Additional observations from a re-analysis of the deposited data

How the results depend on the processing

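Counts of genes that passed the adjusted threshold were 0 in each comparison with edgeR and with limma's voomWithQualityWeights. For non-lesional against WT skin it was 1 with DESeq2, 18 without a filter, and 0 to 5 when each replicate was left out, with 5 without non-lesional replicate 6. For lesional against WT skin DESeq2 gave 14. Members with an unadjusted p under 0.05 numbered 1 for non-lesional against WT skin, and 0 with all 15 libraries in 1 fit. For lesional against WT skin there was also 1, with 3 by DESeq2, 3 without a filter (among them *Oas3*, with 2 WT counts), 0 by voomWithQualityWeights and 0 without lesional replicates 2 and 11. For lesional against non-lesional skin DESeq2 gave 1 and edgeR 0. Shares of all genes under this p are not given for DESeq2, for the fits without a filter or for all 15 libraries in 1 fit. These counts of members are therefore no result about the family. The median member log2 fold change, which is that of *Oasl2*, was 1.37 by voomWithQualityWeights and 0.733 without lesional replicates 2 and 11 for lesional against WT skin. For lesional against non-lesional skin these were -0.216 and -1.003, opposite to the value reported. By DESeq2's Wald test the adjusted p of *Oasl2* was 0.0631 for non-lesional and 0.126 for lesional against WT skin.

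Without lesional replicates 2 and 11 and without a filter, the fold change of *Oas2* against non-lesional skin was -0.39, opposite to the value with all libraries. *Oas1a* and *Oasl1* then held 0 lesional counts and *Oas3* held 1, so no fold change or direction is given for them. With each replicate left out, the mean log2 CPM difference of *Oas1a* for lesional against WT skin ran from -0.22, without lesional replicate 11 and on 1 lesional count, to 0.29. For lesional against non-lesional skin the mean log2 CPM difference of *Oasl2* ran from -0.11, without lesional replicate 11, to 1.23, and that of *Oasl1* from -0.41 to 0.59, and with a prior count of 0.5 that of *Oasl1* was -0.0195. For lesional against WT skin the exact permutation p of *Oasl2* was 0.0317 without lesional replicate 5 and 0.0159 without lesional replicate 8. The higher share of *Oasl2* in lesional than in WT skin had exact p from 0.0397 to 0.0873 when each replicate was left out. Except where a library or the filter was left out, the cause of these changes was not tested. No paired analysis was possible because the groups share no replicate numbers, and no label pairs their samples. Whether consecutive numbers mark shared mice or litters is not given in the sources used here. Depth limits *Oas1a*, *Oas1g* and *Oas3*, with at most 7 counts in a library.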
